A study of Mus musculus with 6 samples.

Results

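The genes described here are 42 mouse genes of antioxidant defence, many of them targets of the transcription factor NRF2. They were chosen by name, as all probe sets whose platform symbol matched 1 of the 42, from 18193 genes read on the array. Earlier results of these data were known at that choice. Own probe sets were found for 36 of the 42 genes, 75 probe sets in all. Prdx1 and Ftl1 had only probe sets listed for several genes and were not read, and Akr1b3, Prdx5, Prdx6 and G6pdx were not analysed here. Of the 36 genes, 33 passed a filter on low signal and were tested, while Slc7a11, Hmox1 and Sod3 lay below it.

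The RNA came from the colon of 3 control mice and 3 mice labelled HDAC2 KO. In the latter, a Cre transgene under the villin promoter, used in intestinal epithelium and not in the other cells of the colon, deleted floxed alleles of Hdac2, the gene for the histone deacetylase HDAC2. The labels do not say whether the control mice carried floxed alleles or Cre. Per the labels, no mouse was treated, all ate a normal diet, the background was mixed (CD-1/129/C57BL/6), and 1 numbered mouse stands behind each array. Neither age nor sex is given. The labels name epithelium as the source and colon as the tissue, and the description label of the second group names HDAC1 along with HDAC2. In samples of mixed cells, fewer cells of a type and less RNA per cell cannot be told apart.

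Cells answer oxidants and reactive chemicals through NRF2, encoded by Nfe2l2. The adaptor KEAP1 holds NRF2 for degradation until its cysteines are modified, whereupon NRF2 enters the nucleus, pairs with small MAF proteins and binds antioxidant response elements. Its targets make and recycle glutathione and thioredoxin, supply NADPH, reduce quinones and carbonyls and handle heme and iron, which in the gut protects an epithelium exposed to food chemicals and bacterial products.

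Values are log2 signals normalized by the authors with RMA (robust multi-array average), so a difference of 1 is a 2-fold change of signal. The Hdac2 probe set of highest signal fell from 10.40 ± 0.031 (SD, n = 3) to 10.19 ± 0.058 (-0.21, limma adjusted p = 0.00893). This is a fall of 1.16-fold, so most of the signal of this probe set remained. Hdac1 rose from 10.31 ± 0.032 to 10.47 ± 0.053 (0.15, adjusted p = 0.0321). No member lay among the 100 annotated genes on either side of Hdac2. Markers of other cells differed between the groups. The mean log2 signal of 8 colon epithelium markers lay between 12.97 and 12.99 in control and between 13.07 and 13.11 in HDAC2 KO, with 2 of 8 called higher. That of 7 absorptive colonocyte markers lay between 11.69 and 11.71 and between 12.04 and 12.14, with 4 of 7 called higher, and 2 of 5 smooth muscle markers were called higher (12.65 to 12.69 against 12.79 to 12.84). Adipocyte markers fell in 4 of 4 tested cases (8.67 to 8.72 against 7.02 to 7.10, over 6 genes with a probe set), B cell and plasma cell markers in 5 of 5 (9.70 to 9.78 against 9.03 to 9.08), T cell markers in 2 of 2 (7.21 to 7.34 against 6.37 to 6.55, over 5 genes) and mast cell markers in 2 of 3 (8.49 to 8.57 against 7.39 to 7.50, over 4 genes). Macrophage markers fell in 1 of 4 tested cases (7.56 to 7.68 against 7.56 to 7.60, over 7 genes), fibroblast markers in 1 of 5 (10.49 to 10.53 against 10.44 to 10.50) and endothelial markers in 3 of 4 (7.30 to 7.40 against 7.13 to 7.16). The 6 goblet cell markers lay at 14.24 to 14.25 against 14.25 to 14.27, and 4 enteric neuron and glia markers at 6.67 to 6.78 against 6.70 to 6.79. The goblet cell values lay near the top of the signal range, where arrays can lose sensitivity. Markers below the filter were Lep, Cidec, Cd3g, Cd8a, Cd2, Cd68, Adgre1, Cd163, Cpa3, Gfap, S100b and both erythroid genes read, Hba-a1 and Alas2 (5.09 to 5.34 against 4.90 to 5.31). The X-linked Xist read 11.99 to 12.04 in control and 11.52 to 11.56 in HDAC2 KO, and the Y-linked Kdm5d 6.90 to 7.02 and 7.36 to 7.84, in the same order. Signal for Xist and for Kdm5d was present together on all 6 arrays, above the filter on low signal, although the labels name 1 mouse an array. Whether an array held RNA of more than 1 mouse was not tested, so n = 3 counts arrays. The part of these differences in the results below was not tested.

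Most antioxidant genes differed little between the groups. By limma, 5 of 33 tested members were called at an adjusted p under 0.05, where 17.9% of all 10916 genes tested were called. Of these, 4 members were higher (9.68% of all genes) and 1 was lower (8.2%). The members' share, 15.2%, was near the background and is not a result about the group. Higher were Akr1b8, Srxn1, Tkt and Taldo1, and lower was Cbr3. The median difference, HDAC2 KO minus control, was 0.032 over the 33 members and 0.0032 over all genes tested, and the median size of the difference was 0.052 and 0.065. The groups did not overlap for 11 of 33 members (33.3%), against 37.7% of all genes, with 9 members higher (19.9% of all genes) and 2 lower (17.7%). Of the 28 members not called, 27 had a 95% interval of the difference within 0.2 of 0 on the log2 scale, which corresponds to a rise of less than 14.9%, and the exception was Cat. These intervals come from the same limma fit and are not adjusted for the number of genes. They hold only for the probe set that stood for each gene. Prdx2 is among the 27, but its other probe set differed by 0.96. The count over all genes, 1952, fell to 1130, 1276 or 1274 once control replicate 1, control replicate 2 or HDAC2 KO replicate 1 was dropped.

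**Figure D1:**
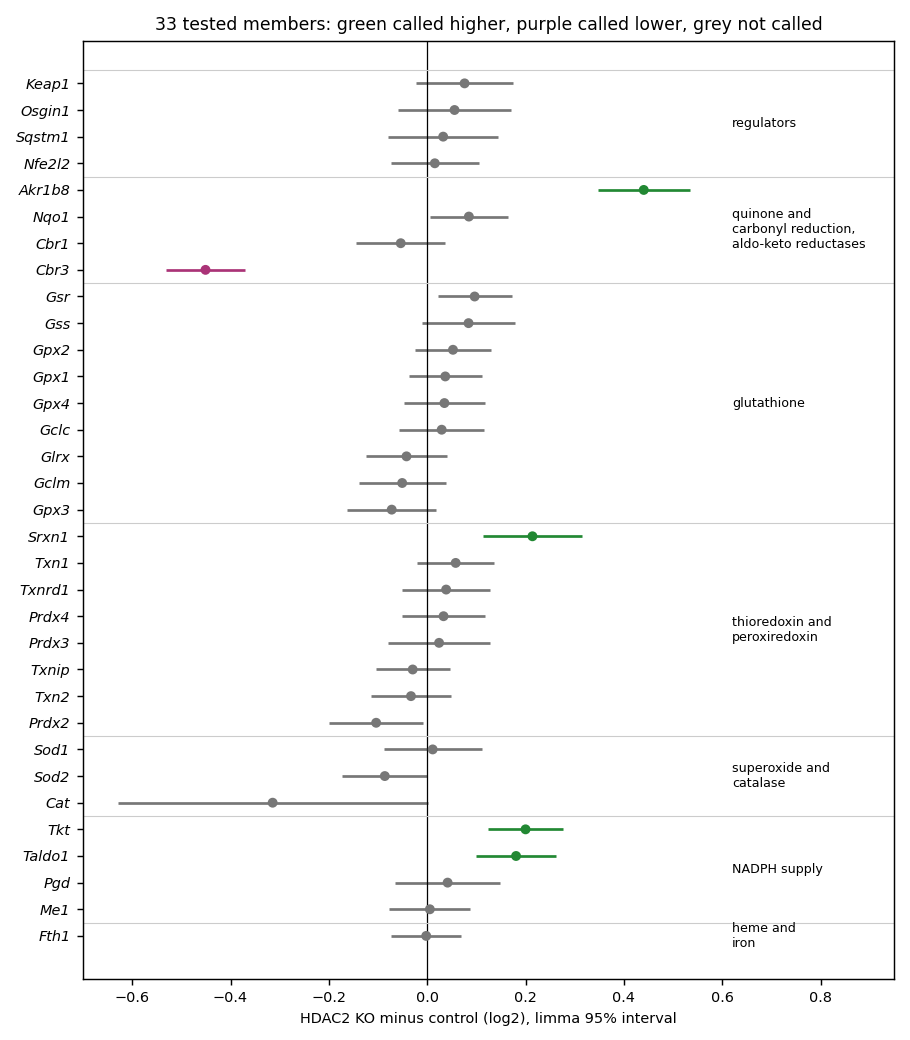
Log2 difference, HDAC2 KO minus control (horizontal axis) for the 33 tested members, grouped by role. Points are differences of means over 3 arrays a group and lines are limma's 95% intervals. Akr1b8 (0.44) and Cbr3 (-0.45) lie farthest from 0, and most grey points, which were not called, lie within 0.1 of it.

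Of the 4 members grouped here as regulators, Nfe2l2, Keap1, Sqstm1 and Osgin1, 0 were called by limma (17.9% of all genes were). An unadjusted p under 0.05 was found for 0 of them. Nfe2l2 read 11.48, 11.44 and 11.39 in control against 11.46, 11.41 and 11.49 in HDAC2 KO. The groups overlapped, and the difference was 0.015 (SE 0.039, limma adjusted p = 0.827). Keap1 read 9.65, 9.62 and 9.54 in control and 9.73, 9.65 and 9.66 in HDAC2 KO. Its highest control array equalled the lowest HDAC2 KO array to the second decimal, and the difference of 0.076 had a 95% interval from -0.022 to 0.17. Sqstm1 encodes p62, an autophagy receptor that binds KEAP1, and read 10.97, 11.03 and 10.86 against 11.01, 11.01 and 10.94. Osgin1, an oxidative stress-induced growth inhibitor, read 8.27, 8.10 and 8.17 against 8.26, 8.17 and 8.27. Both overlapped, with differences of 0.032 and 0.056 (limma adjusted p = 0.699 and 0.498). Since NRF2 is controlled largely at the level of its protein, these mRNA values do not measure its activity.

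Enzymes that reduce carbonyls moved in opposite directions. Akr1b8, an aldo-keto reductase that reduces lipid-derived and other aldehydes with NADPH, read 10.69, 10.66 and 10.64 in control against 11.15, 11.13 and 11.03 in HDAC2 KO. All 3 HDAC2 KO arrays lay above all 3 control arrays. Akr1b8 was 1.36-fold higher (difference 0.44, SE 0.041, limma adjusted p = 0.000265). Cbr3, a carbonyl reductase of the short-chain dehydrogenase family, read 9.26, 9.25 and 9.24 in control and 8.80, 8.83 and 8.75 in HDAC2 KO. The groups stood well apart in the other direction, with a fall of 1.37-fold (-0.45, SE 0.035, limma adjusted p = 9.39e-05). Both calls held in all 16 alternative fits, with adjusted p up to 0.00414 for Akr1b8 and 0.00226 for Cbr3. Each gene had 1 own probe set. Fits that averaged or dropped probe sets, or took them one by one, could therefore not change its difference.

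The other tested enzymes of this group, Cbr1 and Nqo1, were not called. Cbr1, the neighbour and paralog of Cbr3 on chromosome 16, read 11.29, 11.29 and 11.23 against 11.21, 11.27 and 11.17, with overlapping groups and a difference of -0.054 (SE 0.039, limma adjusted p = 0.399). Within each array, Cbr3 minus Cbr1 was -2.03, -2.05 and -2.00 in control and -2.40, -2.44 and -2.42 in HDAC2 KO. All HDAC2 KO arrays lay below all control arrays in this measure, which shifted by -0.40. Its 2-sided exact permutation p was 0.1, the smallest that 3 against 3 arrays can give. Cbr3 alone had already separated the groups, so this is no independent test. Nqo1, the quinone reductase often used as a readout of NRF2 activity, read 7.37, 7.36 and 7.33 against 7.46, 7.40 and 7.46. The groups did not overlap, but the mean signal, 6.05% higher in HDAC2 KO, was not called (difference 0.085, SE 0.035, limma adjusted p = 0.136). With array weights, under which 3506 genes were called, Nqo1 was called higher (0.092, adjusted p = 0.0282).

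**Figure D2:**
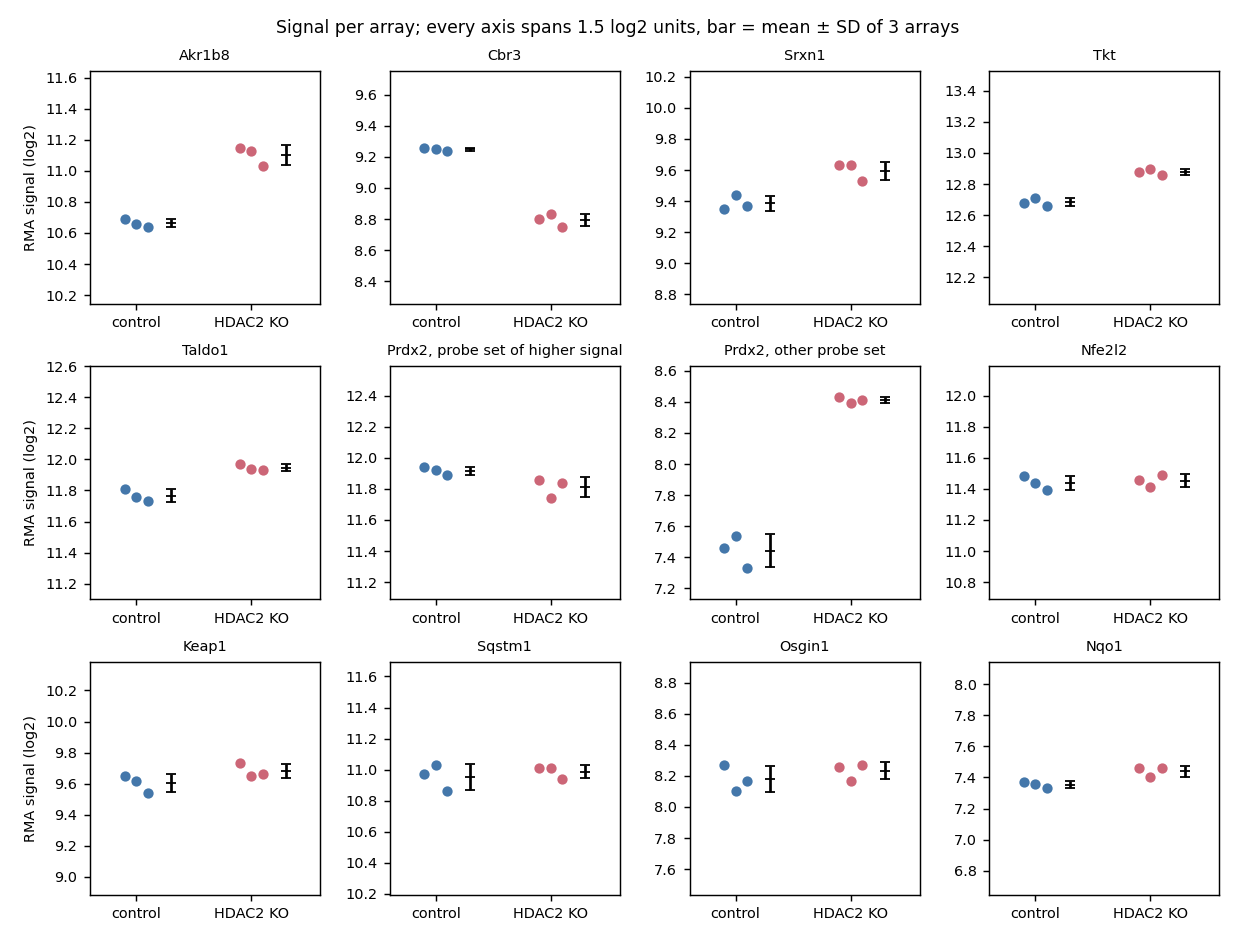
RMA log2 signal of each array (vertical axes, each spanning 1.5 units) for the called members, both probe sets of Prdx2, the regulators and Nqo1. Dots are single arrays, with control on the left and HDAC2 KO on the right, and bars are the mean ± SD of 3 arrays. Akr1b8, Srxn1, Tkt, Taldo1 and the other Prdx2 probe set sit higher in HDAC2 KO, Cbr3 sits lower, and Nfe2l2 sits level.

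In the glutathione group, 0 of 9 tested members were called, against 17.9% of all genes. Gsr, glutathione reductase, came nearest. It read 10.82, 10.80 and 10.78 against 10.92, 10.90 and 10.87, without overlap, and the difference of 0.096 (SE 0.033) had a limma adjusted p of 0.0800. Gsr was called higher with trended, robust variances (adjusted p = 0.0383) and with array weights (0.0206). Its second probe set differed by 0.13 with overlapping groups. Gss, glutathione synthetase, differed by 0.084 (adjusted p = 0.208), and both of its probe sets were without overlap (37.7% of all genes tested were). Gclc and Gclm encode the catalytic and modifier subunits of glutamate-cysteine ligase, the rate-limiting enzyme of glutathione synthesis, and differed by 0.029 and -0.051 (adjusted p = 0.641 and 0.415). The unadjusted p was under 0.05 for Gsr alone.

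Glutathione peroxidases, which use glutathione to reduce peroxides, lay close to 0. Gpx1 differed by 0.037, the gastrointestinal Gpx2 by 0.052, the lipid hydroperoxidase Gpx4 by 0.035 and the secreted plasma form Gpx3 by -0.072 (limma adjusted p between 0.255 and 0.555). The glutaredoxin gene Glrx differed by -0.042. Slc7a11, the cystine importer that supplies glutathione synthesis, lay below the filter at 5.49, 5.65 and 5.52 against 5.11, 5.47 and 5.47. All HDAC2 KO arrays read lower, but without the filter its difference of -0.21 had a limma adjusted p of 0.304.

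Among thioredoxin and peroxiredoxin genes, 1 of 8 tested members was called, near the 17.9% of all genes. Srxn1 encodes sulfiredoxin, which restores overoxidised peroxiredoxins. It read 9.35, 9.44 and 9.37 in control against 9.63, 9.63 and 9.53 in HDAC2 KO, without overlap, and was 1.16-fold higher (0.21, SE 0.044, limma adjusted p = 0.0128). Dropping control replicate 1 or HDAC2 KO replicate 1 ended the call (adjusted p = 0.0611 and 0.0536), as did dropping probe sets marked as matching more than 1 transcript (0.0722) or adjusting over all probe sets (0.0903). The same direction was seen on other probe sets of the gene: 3 of 4 were without overlap, with differences of 0.35, 0.21 and 0.13, and the remaining one differed by 0.042. Of all genes tested, 37.7% were without overlap, and the share over all probe sets is not given here. Probe sets of a gene read the same arrays and are not independent. The probe set with 0.35 read 6.24, 6.28 and 6.11 against 6.61, 6.52 and 6.56, below the 6.66 that genes needed to be tested. It was called in the fit over all probe sets (adjusted p = 0.0225), but not with the replicate number as a block (0.0739) or when any of the arrays was dropped, except HDAC2 KO replicate 2 (0.0517 to 0.0901 for the rest).

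The carriers and other enzymes of this system were not called. Txn1 and Txn2, the cytosolic and mitochondrial thioredoxins, differed by 0.058 and -0.033, Txnrd1, the cytosolic thioredoxin reductase, by 0.038, and Txnip, an inhibitor of thioredoxin, by -0.030 (limma adjusted p between 0.292 and 0.589). Txn1, at a mean of 14.02 in control, also lay near the top of the signal range. The mitochondrial Prdx3 differed by 0.024 and the endoplasmic reticulum form Prdx4 by 0.033.

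Prdx2, a cytosolic peroxiredoxin, gave opposite readings on its probe sets. The probe set of higher signal, which stood for the gene, read 11.94, 11.92 and 11.89 against 11.86, 11.74 and 11.84. All HDAC2 KO arrays were lower, but the difference of -0.10 (SE 0.041) was not called (limma adjusted p = 0.125). The other probe set, which the annotation pairs with the sequence accession of a different transcript record, read 7.46, 7.54 and 7.33 in control and 8.43, 8.39 and 8.41 in HDAC2 KO. It was 1.95-fold higher (0.96, SE 0.063, adjusted p = 0.000241 in the fit over all probe sets), the largest difference among the 75 member probe sets. Its call held in all 12 alternative fits of probe sets run, with adjusted p up to 0.00543. Within each array, the gap between the probe sets moved from -4.49, -4.37 and -4.55 to -3.43, -3.35 and -3.43, a shift of 1.07. The probe sets had already separated the groups in opposite directions, so this gap had to separate them too and is no further test. Averaged over both probe sets, Prdx2 would be called higher (0.43, limma adjusted p = 0.000227), so its direction depends on the probe set. The probe set of higher signal alone was called lower with further quantile normalization (-0.11, adjusted p = 0.0461) and with trended, robust variances (0.0414). What the 2 probe sets bind was not analysed here.

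Over all probe sets, which were tested without a filter, 4 of the 75 member probe sets were called by limma, where 3.8% of 45037 were called. Of these, 3 were higher (1.72% of all probe sets) and 1 was lower (2.08%). They belonged to Akr1b8, Cbr3, Srxn1 and Prdx2. Tkt and Taldo1 were not called there (adjusted p = 0.0613 and 0.0983).

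**Figure D3:**
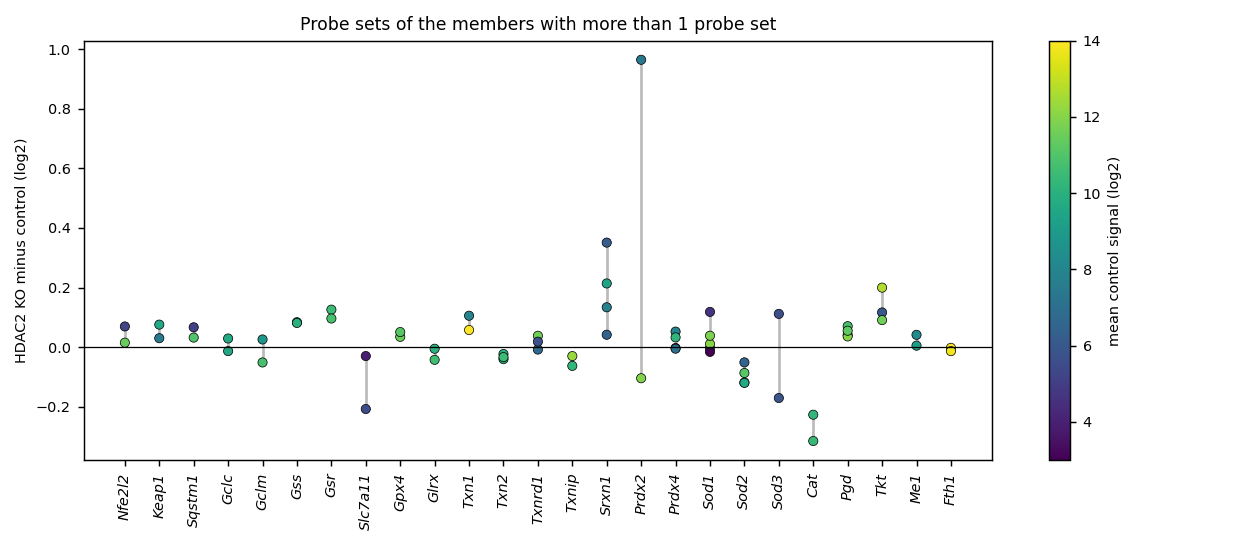
Log2 difference, HDAC2 KO minus control (vertical axis) for each probe set of the 25 members with more than 1, coloured by mean control signal. Grey lines join probe sets of a gene. Those of Prdx2 lie farthest apart, at -0.10 and 0.96, while those of Srxn1 all lie above 0 and those of Cat below it.

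Of 3 tested genes for superoxide dismutases and catalase, 0 were called by limma (17.9% of all genes were) and 0 had an unadjusted p under 0.05, though Cat and Sod2 came close (0.0504 and 0.0511). Cat, the peroxisomal catalase that breaks down hydrogen peroxide, read 10.46, 10.24 and 10.44 in control and 10.11, 9.74 and 10.34 in HDAC2 KO. HDAC2 KO replicate 3 lay within the control range and replicate 2 far below it. Over all genes tested, HDAC2 KO replicate 2 was also the array that deviated most from its group means. Its root mean square deviation was 0.080, against 0.042 to 0.066 on the other arrays. The Cat difference of -0.31 (SE 0.14) was not called (limma adjusted p = 0.159). With the replicate number as a block it was called (adjusted p = 0.0469), as it was with array weights (0.0368) and without HDAC2 KO replicate 3 (-0.45, 0.0290). Without HDAC2 KO replicate 2 the difference was -0.15 (0.257). The second Cat probe set read 10.28, 10.19 and 10.28 against 10.08, 9.88 and 10.10, without overlap, at -0.23 (adjusted p = 0.162 over all probe sets). Adipocyte markers, which fell by 1.64, moved in the same direction. So did mast cell (-1.08), T cell (-0.81), and B cell and plasma cell markers (-0.70), among others. Their part was not tested.

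Sod2, the mitochondrial superoxide dismutase, differed by -0.086 (SE 0.038, limma adjusted p = 0.161), and all 4 of its probe sets had lower means in HDAC2 KO. The cytosolic Sod1 differed by 0.011 (adjusted p = 0.897). The extracellular Sod3 lay below the filter, at 6.00, 5.97 and 5.90 against 5.73, 5.80 and 5.84. All HDAC2 KO arrays were lower on that probe set, with -0.17 (adjusted p = 0.0826 without the filter), but its other probe set differed by 0.11 with overlapping groups.

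Of 4 tested members of NADPH supply, 2 were called, against 17.9% of all genes (9.68% higher), both in the non-oxidative branch of the pentose phosphate pathway. Tkt, transketolase, read 12.68, 12.71 and 12.66 in control against 12.88, 12.90 and 12.86 in HDAC2 KO. The groups were separate, and Tkt was 1.15-fold higher (0.20, SE 0.033, limma adjusted p = 0.0047). Taldo1, transaldolase, read 11.81, 11.76 and 11.73 against 11.97, 11.94 and 11.93. It was 1.13-fold higher, again without overlap (0.18, SE 0.035, adjusted p = 0.0102). With probe sets marked as matching more than 1 transcript dropped, Tkt was read from a probe set that differed by 0.091 and the call was lost (adjusted p = 0.151). Colon epithelium markers were higher by 0.12 on average, smooth muscle markers by 0.15 and absorptive colonocyte markers by 0.40. Their part in these rises was not tested.

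Of the members that form NADPH themselves, Pgd and Me1 were not called and G6pdx was not read. Pgd, 6-phosphogluconate dehydrogenase of the oxidative branch, read 12.07, 12.05 and 12.03 against 12.13, 12.00 and 12.16, a difference of 0.041 (limma adjusted p = 0.591). Me1, the cytosolic malic enzyme, differed by 0.0053 (adjusted p = 0.941). In the heme and iron group, Fth1, the ferritin heavy chain, read 14.02, 14.03 and 14.04 against 14.02, 14.05 and 14.02, near the top of the signal range, where arrays can lose sensitivity. Its difference of -0.0021 had a 95% interval from -0.073 to 0.069. Hmox1, the stress-inducible heme oxygenase, lay below the filter at 6.60, 6.31 and 6.39 against 6.31, 6.37 and 6.38, and its groups overlapped.

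The promoters of the 5 called members are shown because NRF2 targets are known for antioxidant response elements. The sequences are the 250 bases before the gene start from RefSeq, build GRCm38.p6, plus strand: chr6:34353896-34354145 for Akr1b8, chr2:152105274-152105523 for Srxn1, chr7:141391910-141392159 for Taldo1, chr14:30548881-30549130 for Tkt and chr16:93682969-93683218 for Cbr3. Capitals mark matches to TGACNNNGC, the core of the element, on either strand, or to TGANTCA, a palindromic sequence that MAF and AP-1 proteins also bind. The latter was added after the promoters had been read.
Akr1b8: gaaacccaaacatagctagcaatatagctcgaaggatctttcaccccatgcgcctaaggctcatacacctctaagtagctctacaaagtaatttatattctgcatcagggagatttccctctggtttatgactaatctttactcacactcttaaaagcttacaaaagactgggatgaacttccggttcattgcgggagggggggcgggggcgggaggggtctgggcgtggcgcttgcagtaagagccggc
Srxn1: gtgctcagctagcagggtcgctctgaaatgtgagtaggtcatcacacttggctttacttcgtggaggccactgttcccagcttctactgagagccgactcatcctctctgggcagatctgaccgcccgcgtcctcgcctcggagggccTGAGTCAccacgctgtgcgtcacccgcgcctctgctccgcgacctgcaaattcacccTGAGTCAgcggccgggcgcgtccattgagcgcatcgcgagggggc
Taldo1: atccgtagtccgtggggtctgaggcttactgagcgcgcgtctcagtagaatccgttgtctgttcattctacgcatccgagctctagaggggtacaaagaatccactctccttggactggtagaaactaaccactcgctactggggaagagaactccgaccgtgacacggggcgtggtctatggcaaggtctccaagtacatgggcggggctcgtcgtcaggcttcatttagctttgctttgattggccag
Tkt: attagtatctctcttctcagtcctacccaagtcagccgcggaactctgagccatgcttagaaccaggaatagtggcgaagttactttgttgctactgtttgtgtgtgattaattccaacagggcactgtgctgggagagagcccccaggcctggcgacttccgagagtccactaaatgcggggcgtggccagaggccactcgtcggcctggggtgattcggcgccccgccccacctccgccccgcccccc
Cbr3: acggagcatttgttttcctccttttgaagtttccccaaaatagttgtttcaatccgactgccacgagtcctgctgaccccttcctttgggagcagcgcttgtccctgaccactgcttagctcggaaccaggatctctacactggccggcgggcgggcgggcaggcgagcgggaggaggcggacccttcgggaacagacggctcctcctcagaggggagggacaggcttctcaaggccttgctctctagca
Only the Srxn1 promoter among these held a match: TGAGTCA occurs in it at 102 and at 45 bases before the gene start, counted from the first base of the match. The others held neither motif in this window, which says nothing about elements farther away.

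Matches in other members are shown for Gclm (chr3:122245393-122245461, plus strand), Txnrd1 (chr10:82859084-82859152, plus strand) and Nfe2l2 (chr2:75704865-75704913, minus strand), NRF2 pathway genes that were not called here. The Txnrd1 stretch precedes an internal transcript start, 1 of 3 starts listed, which lies 25.3 kb inside the annotated gene (chr10:82833951-82897724), and the Gclm stretch precedes a start that lies 70 bases inside the annotated Gclm gene.
Gclm: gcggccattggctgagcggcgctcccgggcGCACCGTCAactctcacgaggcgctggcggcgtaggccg
Txnrd1: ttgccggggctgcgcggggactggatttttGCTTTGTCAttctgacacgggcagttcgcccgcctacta
Nfe2l2: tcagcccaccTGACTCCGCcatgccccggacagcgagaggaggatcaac
Promoter windows were listed for 36 of the 42 members, 6 of them with more than 1 transcript start, and a gene was counted if any window held the motif. TGACNNNGC was present in 6 of these 36 (16.7%), against 11.5% of 27025 genes in the table, and TGANTCA in 4 of 36 (11.1%) against 7.82%. In Prdx1, matches to both motifs overlap. A match is a description of the letters and not a measured binding site.

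A wider list of 97 redox genes outside the 42 was read in the same way. Of 80 tested, 13 were called higher and 7 lower by limma, which is 25% against 17.9% of all genes. The count of 20, and its excess over all genes, moved with the settings. An excess remained in some, such as further quantile normalization (26.2% against 20.5%), trended, robust variances (32.5% against 20.9%) and array weights (40% against 32.1%). It shrank or was lost in others. With no signal filter 7 of 90 were called (7.78%, against 7.62% of all genes). Leaving out control replicate 1, 2 or 3 gave 7, 10 or 12 calls (8.75%, 12.5% and 15% against 10.4%, 11.7% and 12.7%), and leaving out HDAC2 KO replicate 1 or 3 gave 10 or 11 (12.5% and 13.8% against 11.7% and 15.2%). A share near the background is not a result about the list. The list was chosen with earlier results of these data known, so an excess is no independent result either. Of the 17 genes named below, 5 kept their call in every alternative fit run.

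Those 5 came from different arms of the system. Maff, a small MAF partner of NRF2, read 8.13, 8.19 and 8.17 in control and 8.49, 8.47 and 8.55 in HDAC2 KO, 1.27-fold higher (0.34, SE 0.036, limma adjusted p = 0.000511). Tfrc, the transferrin receptor for iron uptake, read 12.01, 11.99 and 11.97 against 12.50, 12.45 and 12.46, 1.39-fold higher (0.48, SE 0.033, adjusted p = 4.87e-05). Averaged over its probe sets, Tfrc was higher by 0.29 (limma adjusted p = 0.00215). Cbr2, another carbonyl reductase, read 9.13, 9.19 and 9.02 against 8.51, 8.66 and 8.62, 1.43-fold lower (-0.52, SE 0.055, adjusted p = 0.000582). None of these 3 overlapped between groups. Noxo1, the organiser of the colonic NADPH oxidase NOX1, was 1.19-fold higher (0.25, SE 0.037, adjusted p = 0.00314). Sesn3, a sestrin, was 1.18-fold lower (-0.24, SE 0.037, adjusted p = 0.00315).

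The other named calls were each lost in at least 1 alternative fit. Me2, the mitochondrial malic enzyme, was higher by 0.23 (limma adjusted p = 0.00554), but by 0.11 when its probe sets were averaged (0.173). Ncf4, a subunit of the phagocyte NADPH oxidase, differed by -0.21 (adjusted p = 0.0117). The immune cell marker lists differed by -0.052 (macrophage), -0.70 (B cell and plasma cell), -0.81 (T cell) and -1.08 (mast cell). The part of these or other cells was not tested. Dropping control replicate 1 ended the Ncf4 call (0.0557). Ncoa4, the receptor for ferritin breakdown, differed by -0.17. Its call was lost without control replicate 1 (0.0704), without HDAC2 KO replicate 1 (0.0534) or with no signal filter (0.0512). Xdh, Cp, Mafk, Sesn1, Mgst2, Akr1c13 and Akr1b10 were called higher, by 0.12 to 0.19, and Slc3a2, the partner chain of the cystine importer, and Aldh1l1 lower, at -0.13 and -0.20. Each of these 9 calls was lost in at least 3 of the 6 fits that left out 1 array, and those of Mgst2, Sesn1 and Akr1b10 also with the replicate block (0.0594, 0.0625 and 0.0682). Blvra, Fech and Ncf1 were called as well (0.17, 0.16 and -0.27, adjusted p = 0.035, 0.0408 and 0.03). They fall outside the rule for named genes, are named here after their values were seen, and were not followed through the alternatives. Dropping control replicate 1, 2 or 3 ended 10, 8 or 6 of the 17 calls, and dropping HDAC2 KO replicate 1, 2 or 3 ended 7, 2 or 8.

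**Figure D4:**
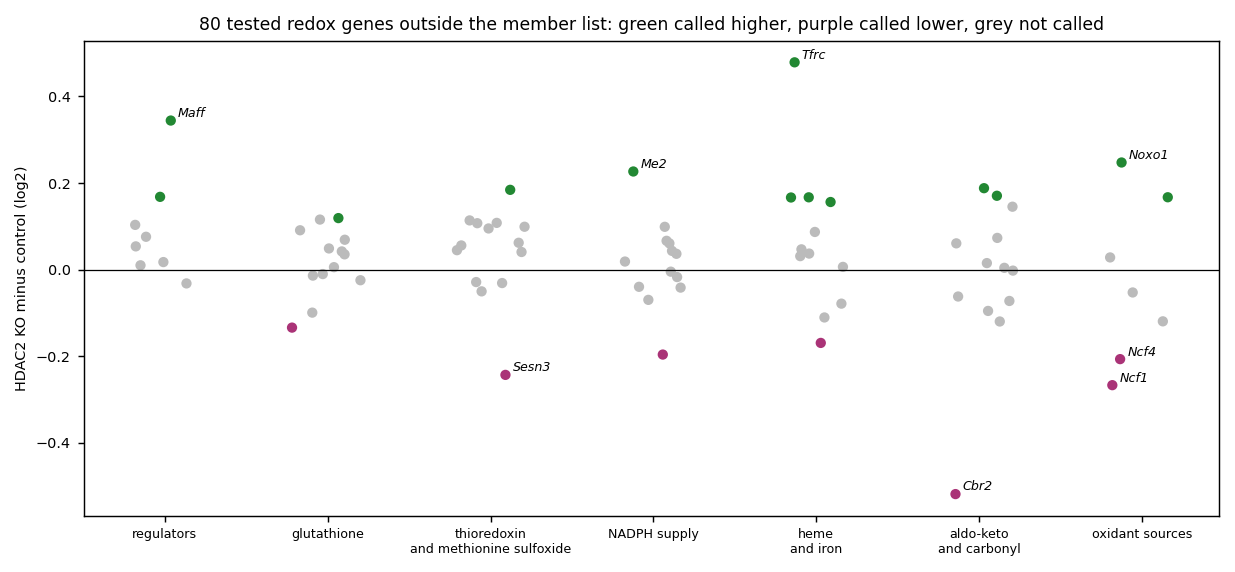
Log2 difference, HDAC2 KO minus control (vertical axis) for the 80 tested redox genes outside the 42, by role. Each dot is 1 gene, green called higher, purple called lower and grey not called, with names where the difference exceeds 0.2. Tfrc (0.48), Maff (0.34) and Cbr2 (-0.52) lie farthest from 0.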

How the data were processed

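Per the labels, RNA from 3 control and 3 HDAC2 KO colons was made into biotin-labelled cRNA and read on single-colour arrays. The deposited values are log2 signals made by the authors with RMA, per the submitters' processing notes. RMA corrects background, quantile-normalizes and summarises per probe set, which compresses differences at low signal and hides changes in total RNA. The log2 scale was taken from the values (array medians 6.17 to 6.21). Scan dates were not used here, so batches of hybridisation were not tested. Precision is limited by the number of arrays.

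Symbols came from the platform annotation: of 45101 probe sets, 64 were array controls, 34945 had 1 symbol, 932 several and 9160 none, and 34741 matched RefSeq (GRCm38.p6). The probe set with the highest mean stood for each of 18193 genes, and the 10916 at or above the 40th percentile (6.66) were tested with limma 3.58.1 in R 4.3.3 (lmFit, eBayes, group as sole term, Benjamini-Hochberg). A second fit took all 45037 probe sets that were not array controls. Every adjusted p is from limma with 3 arrays a group. On simulated data for HDAC2 KO against control over 10916 genes, 38.8% of changes of 0.2 and 95.5% of changes of 0.5 were recovered. Over 45037 probe sets, 0% and 55.2% were. Each simulation changed 200 genes or probe sets, far fewer than were called in the data (1952 genes and 1712 probe sets). The Benjamini-Hochberg limit is stricter when fewer features change, so these shares need not hold for the data.

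Named by rule were called members, members with a called probe set, the regulators and Nqo1, and up to 3 called genes of each wider list by smallest p. Values per array of other members (such as Cat and Gsr) are printed after they were seen, and of wider genes only for Maff, Tfrc and Cbr2. Members and lists were chosen with earlier results of these data known. Alternatives changed the filter, gene summary, scaling, variance model, weights, threshold and probe set types, left out each array, or added the replicate number as a block. Deviations from the group means correlated between same-numbered arrays of the 2 groups with r between 0.20 and 0.34. For other pairs r lay between -0.37 and 0.18. Deviations from a mean of 3 arrays sum to 0, which ties these values to each other. They cannot show whether the numbers pair the samples, and no label says so.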

Additional observations from a re-analysis of the deposited data

How the results depend on the processing

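The calls of Akr1b8 and Cbr3 kept their direction and stayed under the threshold in all 16 alternatives run, and those of Srxn1, Tkt and Taldo1 kept their direction but were lost in the fits named with them. Over 527 pairs of a member and an alternative, 495 kept direction and side of the threshold, 8 gained a call, 7 lost one and 17 changed sign. With array weights, 3506 genes, 8 members and 32 wider genes were called, and at an adjusted p under 0.01, 954, 3 and 6. Without a signal filter 7 wider genes were called, and without probe sets marked as matching more than 1 transcript 3 members. Of member probe sets, 8 were called with trended, robust variances and 7 at an adjusted p under 0.10. Leaving out 1 array at a time gave 1130 to 2107 genes, 4 to 6 members, 7 to 16 wider genes and 3 to 4 member probe sets. With pairs of arrays blocked by number, 1943 genes, 6 members, 17 wider genes and 3 member probe sets were called, and among members only the calls given with Cat and the Srxn1 probe set changed, and no other call of a named gene beyond those given in the report. Prdx2 turned to 0.43 with the mean of its probe sets. The other sign changes were of uncalled values near 0: Fth1 with quantile normalization (0.012) and median centring (0.0012), Gclc without the marked probe sets (-0.013), and, with 1 array left out, Fth1 (-0.012 to 0.0027), Sod1 (-0.016 to 0.042), Nfe2l2 (-0.0062 to 0.039), Prdx3 (-0.013 to 0.051), Sqstm1 (-0.013 to 0.071) and Me1 (-0.020 to 0.022). The cause of these changes was not tested.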
